A study of Mus musculus with 6 samples.

Results

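Hepatocyte growth factor, fibroblast growth factors and their receptors were followed through 9 genes: the ligand genes Hgf, Fgf2, Fgf7 and Fgf21 and the receptor genes Met, Fgfr1, Fgfr2, Fgfr3 and Fgfr4. They were chosen by name out of 22180 genes measured, and each was represented by 1 probe set, the only probe set that carried its symbol alone. The 6 microarrays held RNA of C2C12, a mouse myoblast line that is a single immortal line and not a tissue. In 3 arrays the cells had received a pool of small interfering RNAs against Htt, the mouse huntingtin gene, and in 3 arrays a scramble siRNA. The treated arrays are labelled as a knockout although the treatment is described as siRNA, so they are called Htt siRNA here. No further allele or agent, time after transfection or culture stage is given in the sources used here, and nothing says that replicates came from separate cultures, so every p-value here rests on sample-to-sample spread that may be purely technical.

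HGF is a secreted protein that binds the receptor tyrosine kinase MET, and in muscle it is known for waking quiescent satellite cells and for holding myoblasts in an undifferentiated state. FGFs bind 4 receptor tyrosine kinases, FGFR1 to FGFR4, with heparan sulfate as a cofactor. FGF2 is a classical mitogen of myoblasts that delays their differentiation. FGF7, also called keratinocyte growth factor, acts mainly on the epithelial splice form of FGFR2 and is made by mesenchymal cells. FGF21 is a circulating metabolic hormone that needs the coreceptor beta-Klotho (Klb), and its gene is known to be switched on by the stress transcription factor ATF4. All these receptors signal through adaptor proteins to RAS and ERK, PI3K and phospholipase C gamma.

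Hgf and Fgf7 lay lower together, and Fgf21 varied widely within both groups, so the start regions of these 3 genes are shown. Each is the 250 bases before an annotated start in the RefSeq table of GRCm38.p6, read 5′ to 3′ on the gene's strand; 8 of the 9 genes had an entry there, with 10 windows in all. Capitals mark the motif CANNTG (the E-box, the core bound by MyoD, myogenin and other basic helix-loop-helix factors) in Hgf and Fgf7, and the motif TGATGCAA (an amino acid response element, of the kind ATF4 binds) in Fgf21, where it reads on the opposite strand.
Hgf, chr5:16553245-16553494, plus strand: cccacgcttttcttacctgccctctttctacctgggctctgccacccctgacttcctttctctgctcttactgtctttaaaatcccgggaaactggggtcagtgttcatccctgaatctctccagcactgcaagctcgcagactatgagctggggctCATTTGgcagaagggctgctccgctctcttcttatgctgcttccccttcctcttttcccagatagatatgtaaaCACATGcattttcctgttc
Fgf7, chr2:126034408-126034657, plus strand: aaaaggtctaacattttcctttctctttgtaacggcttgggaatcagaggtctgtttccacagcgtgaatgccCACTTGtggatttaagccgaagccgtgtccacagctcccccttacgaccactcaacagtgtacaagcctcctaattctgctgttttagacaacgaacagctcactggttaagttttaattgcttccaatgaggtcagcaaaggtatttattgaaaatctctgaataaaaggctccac
Fgf21, chr7:45615491-45615740, minus strand: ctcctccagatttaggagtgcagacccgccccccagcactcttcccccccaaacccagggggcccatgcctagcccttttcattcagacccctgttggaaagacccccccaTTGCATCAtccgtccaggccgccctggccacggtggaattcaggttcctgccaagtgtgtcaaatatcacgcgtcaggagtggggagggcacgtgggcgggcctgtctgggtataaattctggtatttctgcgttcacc
Motifs were searched on both strands in the same 250 bases of 32851 RefSeq windows. The E-box matched 2 times in the Hgf window, 1 time in the Fgf7 window and 2 times in the Fgf21 window (not marked there), and it is a common motif, found in 66.2% of all windows. The second annotated Hgf start had no E-box in its window. TGATGCAA began 139 bases before the Fgf21 start and was found in 0.791% of all windows, and Fgf21 held the only match among the 10 windows of these genes. The AP-1 motif TGANTCA, found in 6.75% of windows, matched in that of Met and in none of the printed windows. The motif TATAAA, found in 12.4% of windows, matched in that of Fgf21, 28 bases before the start. None of these motifs overlapped another in the printed windows.

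Expression is given as the deposited log2 RMA values (background-corrected, quantile-normalized probe set signals), and differences are Htt siRNA minus scramble with the moderated standard error of limma. Adjusted p-values are Benjamini-Hochberg over all 22180 genes, with a threshold of 0.05. Groups are said not to overlap where every Htt siRNA array lies above, or every one below, all scramble arrays. The values span 0.84 to 12.12, the median gene averaged 2.95, and detection calls were not used here, so levels near that median may be background. RMA compresses weak signals, and levels of different probe sets cannot be ranked against each other. Htt itself stood at 4.49, 4.47 and 4.65 with Htt siRNA and at 5.59, 5.60 and 5.72 with scramble (-1.10 ± 0.09, adjusted p = 0.0559 in limma), lower in each treated array. All 8 C2C12 myoblast markers lay above the median gene, as did 4 of 8 fibroblast, 3 of 6 epithelial, 3 of 7 macrophage, 2 of 6 adipocyte, 2 of 7 neuron and glia, 0 of 7 endothelial and 0 of 7 hepatocyte markers. Of the 8 myotube markers 7 did so, and their summed log2 level was 39.8 to 48.0 with Htt siRNA and 28.7 to 35.1 with scramble. In RNA of whole cultures, fewer cells of a type and less RNA per cell cannot be told apart.

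None of the 9 genes passed the adjusted threshold, and neither did any other gene (0% of genes). At an unadjusted limma p under 0.05, 2 of the 9 lay lower (Hgf and Fgf7) and 0 higher, against 10.9% of all genes in either direction (5.14% lower and 5.72% higher). Of the 9, 8 had a negative log2 fold change, against 41.8% of all genes, and 3 (Hgf, Fgf7 and Fgfr3) lay lower in every Htt siRNA array than in every scramble array, with 0 of the 9 higher in the same way. Among all genes 5.91% lay lower without overlap and 16.0% did so in either direction. Their median log2 fold change was -0.09, and that of all genes 0.03. None of the 9 reached a 2-fold difference, which 0.482% of all genes did. The plot of single arrays shows where these values come from.

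**Figure D1:**
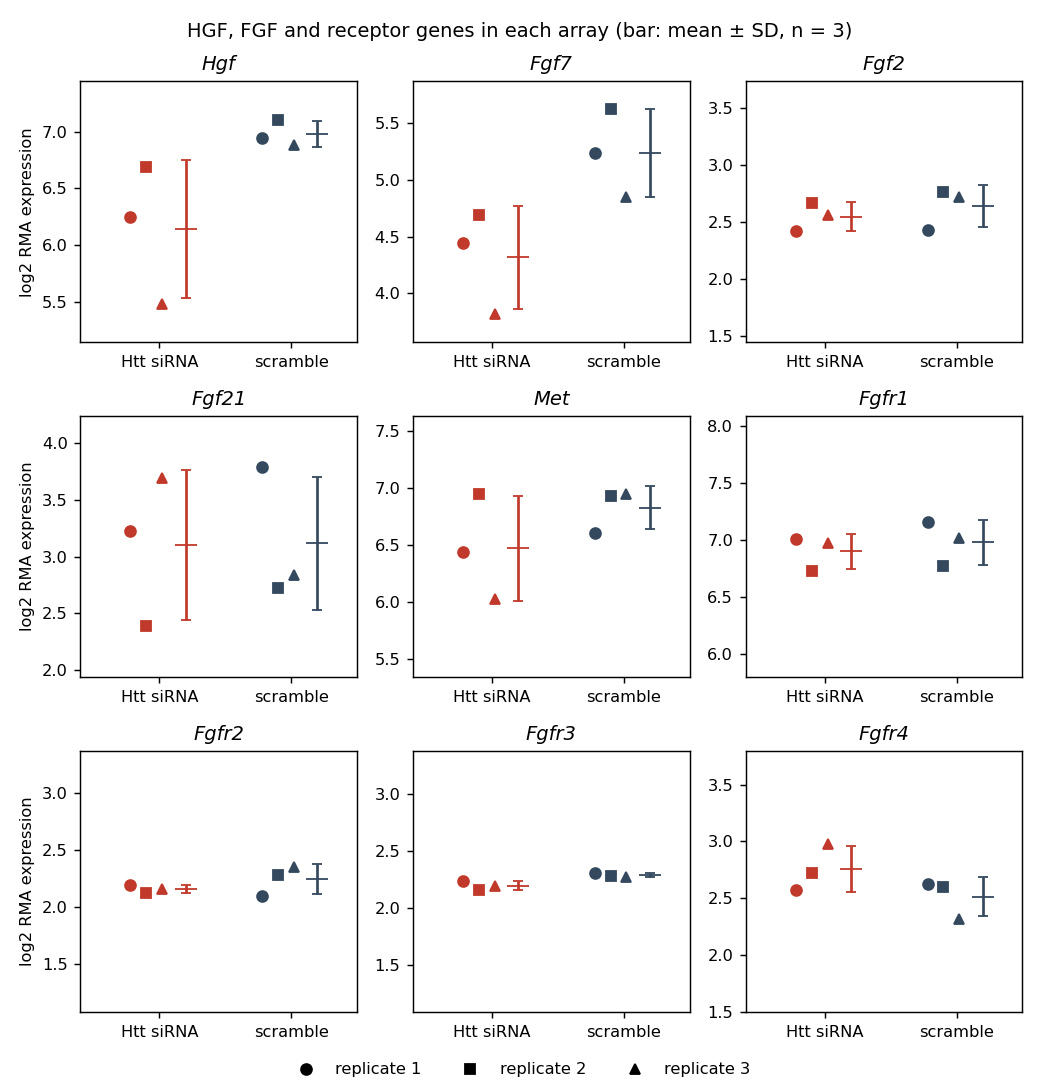
Log2 RMA expression (y axis) of the 9 genes in each of the 3 Htt siRNA and 3 scramble arrays, with marker shapes for replicate numbers and bars for mean ± SD (n = 3); every panel spans the same number of log2 units. Hgf and Fgf7 are lower in all 3 Htt siRNA arrays, Fgf21 spans more than 1 log2 unit within both groups, and Met spans 0.92 with Htt siRNA and 0.34 with scramble.

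Hgf, the ligand of MET, had log2 values of 6.25, 6.69 and 5.49 in Htt siRNA replicates 1, 2 and 3, against 6.94, 7.10 and 6.88 in the scramble arrays. The scramble arrays lay close together, the Htt siRNA arrays spread over 1.21 log2 units, and the groups did not overlap, with a gap of 0.19 between the nearest arrays. The means were 6.14 ± 0.61 with Htt siRNA and 6.98 ± 0.11 with scramble (SD, n = 3 each). The log2 fold change of -0.83 ± 0.27 corresponds to 56.1% of scramble (95% confidence interval 36.4 to 86.5%), with an adjusted p = 0.387 in limma (unadjusted p = 0.0153). The exact two-sided permutation p of 0.1 is the smallest that 3 against 3 arrays allow. Single Htt siRNA arrays stood at 60.4%, 82.2% and 35.6% of the scramble mean. Only 0.676% of genes had a more negative fold change. Without Htt siRNA replicate 2 the log2 fold change was -1.11 and limma's adjusted p = 0.0453, past the threshold, where 2.43% of all genes were. That array had the highest Hgf of the treated ones, so this setting gives no separate support. Dropping the third treated array brought the log2 fold change to -0.51 (adjusted p = 0.634 in limma). Over all 15 alternatives the adjusted p lay between 0.0453 and 0.719.

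Fgf7 followed the same order of arrays. Its log2 values were 4.44, 4.69 and 3.82 in Htt siRNA replicates 1, 2 and 3, against 5.24, 5.62 and 4.85 in the scramble arrays. Here too Htt siRNA replicate 3 was lowest and replicate 2 highest of the treated arrays, scramble replicate 2 was highest of all, and a gap of 0.16 separated the groups. The means were 4.32 ± 0.45 with Htt siRNA and 5.24 ± 0.39 with scramble (SD, n = 3 each), and the difference was -0.92 ± 0.26, or 52.9% of the scramble level (95% confidence interval 34.9 to 80.0%; adjusted p = 0.346 in limma, unadjusted p = 0.00774; exact two-sided permutation p = 0.1). The share of the scramble mean was 57.7%, 68.5% and 37.4% in the single treated arrays. Leaving out 1 array at a time gave log2 fold changes between -1.11 and -0.67. Over all 15 alternatives limma's adjusted p lay between 0.0255 and 0.704, and 1 of them was past the threshold. From the lowest to the highest array, Hgf and Fgf7 had one and the same sequence: Htt siRNA replicates 3, 1 and 2, then scramble replicates 3, 1 and 2. Chek2, Uba6, Cep152, Zik1 and Nup133, named below for their likeness, had it too, and its share among all genes was not counted. Fgf7 lies within the span of Fam227b in RefSeq, a gene without a probe set of its own among those used here. Hgf, Met and Fgfr1 likewise overlap long noncoding RNA models that have none, and the probes' strand was not examined for any of the 9 genes.

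The cell division list of 14 measured genes had 0 members past the adjusted threshold. At an unadjusted p under 0.05, 13 lay lower, against 5.14% of all genes. After centring each gene over the arrays, the treated replicates 1, 2 and 3 averaged -1.06, 0.34 and -0.78 on this list, against 0.19, 0.76 and 0.55 in the scramble arrays. Htt siRNA replicate 2, the treated array with the highest Hgf and Fgf7, was also the treated array with the highest cell division level. The order was not the same throughout, since replicate 1 had the lowest cell division level and replicate 3 the lowest Hgf and Fgf7. Fibroblasts are known to make both ligands. Of the 8 markers on the fibroblast list, 3 lay higher at an unadjusted p under 0.05 and 1 lower. Among all genes 5.72% lay higher and 5.14% lower at that p. Dcn, Col1a1 and Col3a1 were higher and Pdgfra lower, named after their values were seen. The summed log2 level of the 8 markers was 37.6 to 38.3 with Htt siRNA and 34.2 to 35.3 with scramble. The other 4 markers of that list averaged below the median gene. The summed levels of the myoblast, myotube and endothelial lists were also higher without overlap, although 0 of 7 endothelial markers lay above the median gene. Those of the remaining lists overlapped between the groups. The part of cell division, of myotube formation and of other cell types in the Hgf and Fgf7 differences was not tested.

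**Figure D2:**
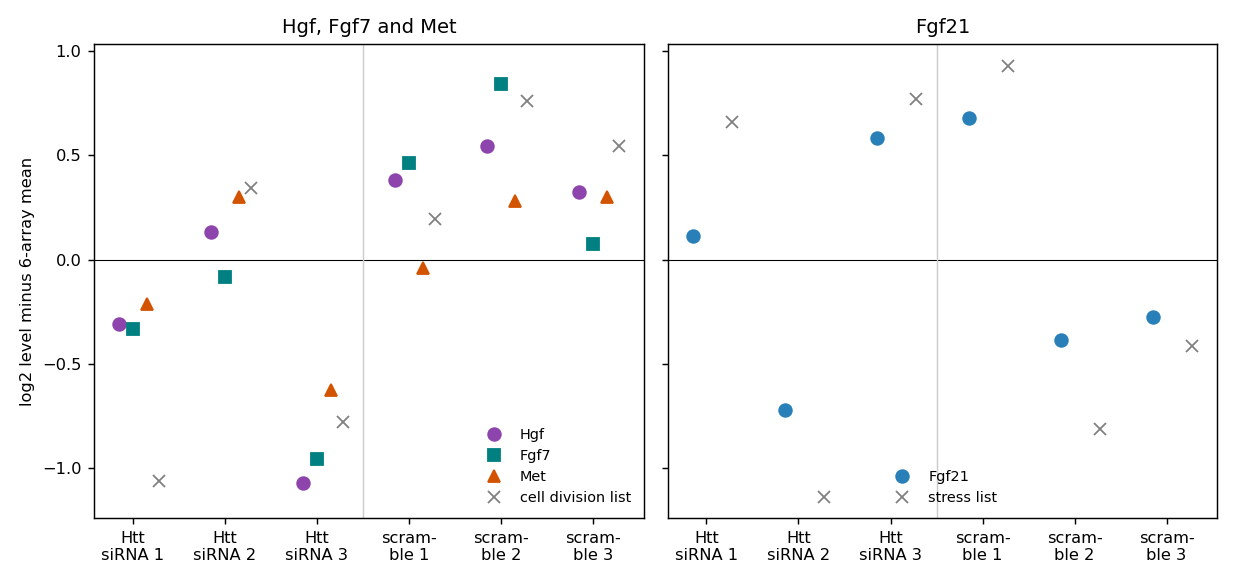
Log2 level minus the mean of the 6 arrays (y axis) in each array for Hgf, Fgf7 and Met with the mean of the cell division list (left), and for Fgf21 with the mean of the endoplasmic reticulum and integrated stress list (right). Hgf and Fgf7 lie below 0 in Htt siRNA replicates 1 and 3 and above 0 in all scramble arrays, while Fgf21 is high in Htt siRNA replicate 3 and scramble replicate 1 and low in Htt siRNA replicate 2.

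Fgf2, the myoblast mitogen, had log2 values of 2.42, 2.67 and 2.56 with Htt siRNA and 2.43, 2.76 and 2.72 with scramble. The groups overlapped, and all values lay below the median gene mean of 2.95. The difference was -0.09 ± 0.12 (95% confidence interval -0.37 to 0.18; adjusted p = 0.812 in limma), and it ran from -0.20 without scramble replicate 1 to -0.026 without Htt siRNA replicate 1. Fgf2 overlaps 2 measured genes in RefSeq, and neither the antisense transcript Fgf2os (-0.07 ± 0.09) nor Nudt6 (0.01 ± 0.19) was past the threshold.

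Fgf21 split the arrays across the groups. Its log2 values were 3.22, 2.39 and 3.69 in Htt siRNA replicates 1, 2 and 3, against 3.79, 2.73 and 2.84 in the scramble arrays. The highest array was a scramble array and the lowest a treated array, and the spread over all 6 (SD 0.56) exceeded that of 98.2% of genes. Its mean over the 6 arrays, 3.11, lay near the median gene mean of 2.95, so its lower values may be background. The group means were 3.10 ± 0.66 with Htt siRNA and 3.12 ± 0.58 with scramble (SD, n = 3 each), a difference of -0.01 ± 0.37 whose 95% confidence interval ran from -0.88 to 0.85 (adjusted p = 0.992 in limma; exact two-sided permutation p = 1). That interval covers differences as large as that of Hgf in either direction. The sign turned when Htt siRNA replicate 2 (0.34) or scramble replicate 1 (0.32) was dropped, and with array weights (0.15).

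A list of 19 measured endoplasmic reticulum and integrated stress genes divided the arrays in the same way. Centred as above, it averaged 0.66, -1.14 and 0.77 in treated replicates 1, 2 and 3, against 0.93, -0.81 and -0.41 in the scramble arrays. From lowest to highest, the 6 arrays had the same order by this list as by Fgf21. With the stress level as a covariate in limma, the Fgf21 difference was -0.13 ± 0.12 (adjusted p = 0.697). The list was written with earlier results of these data known, so this fit is given as a description. The list itself had 0 members with an unadjusted p under 0.05 between the groups, in either direction, against 10.9% of all genes. Among its members Creld2, an endoplasmic reticulum protein, stood at 10.48, 8.37 and 10.07 with Htt siRNA and 9.70, 8.51 and 8.53 with scramble. Manf, a secreted stress-induced factor, and Slc7a11, the cystine transporter and an ATF4 target, had differences of 0.38 ± 0.32 and -1.27 ± 1.00. The part of stress in the Fgf21 values was not tested. Klb, the FGF21 coreceptor gene, averaged below the median gene and had a difference of 0.20 ± 0.10 (adjusted p = 0.499 in limma), chosen after its value was seen.

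Met, the HGF receptor, had log2 values of 6.44, 6.95 and 6.03 in Htt siRNA replicates 1, 2 and 3, against 6.61, 6.93 and 6.95 in the scramble arrays. Htt siRNA replicates 1 and 3 lay below every scramble array, but replicate 2 lay at the top, so the groups overlapped. The means were 6.47 ± 0.46 with Htt siRNA and 6.83 ± 0.19 with scramble (SD, n = 3 each), and the difference was -0.36 ± 0.22 (95% confidence interval -0.87 to 0.15; adjusted p = 0.595 in limma; exact two-sided permutation p = 0.4). Dropping Htt siRNA replicate 2 gave -0.60, and dropping replicate 3 of that group gave -0.14. That Hgf and Met differed from each other in their response was not tested.

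Fgfr1, the FGF receptor known as the main one of myoblasts, had log2 values of 7.01, 6.73 and 6.97 with Htt siRNA and 7.16, 6.77 and 7.02 with scramble. Within both groups replicate 2 was the lowest array, and the groups overlapped. The difference was -0.08 ± 0.13 (95% confidence interval -0.38 to 0.22; adjusted p = 0.857 in limma), so a 2-fold change lies outside the interval. Its sign turned when Htt siRNA replicate 2 or scramble replicate 1 was dropped, to 0.0092 in each case.

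Fgfr2, Fgfr3 and Fgfr4 all averaged below the median gene, and their levels may be background. Fgfr2, whose epithelial form is the receptor of FGF7, ranged from 2.12 to 2.19 with Htt siRNA and from 2.10 to 2.35 with scramble (-0.09 ± 0.09, and -0.16 to -0.033 with 1 array left out). Fgfr3, best known for restraining cartilage growth, stood at 2.23, 2.16 and 2.19 with Htt siRNA and 2.31, 2.28 and 2.27 with scramble. Those groups did not overlap, yet the gap between them was 0.04 log2 units and the difference -0.09 ± 0.08 (adjusted p = 0.703 in limma; exact two-sided permutation p = 0.1). Fgfr4, the receptor linked to muscle differentiation and regeneration, was the single gene of the 9 with a positive difference. Its values were 2.57, 2.72 and 2.98 with Htt siRNA and 2.63, 2.60 and 2.32 with scramble, with overlap between the groups (0.24 ± 0.13, adjusted p = 0.551 in limma; exact two-sided permutation p = 0.3). Dropping the third treated array gave 0.13 for Fgfr4 and dropping the first gave 0.34, where limma's unadjusted p was 0.0499 and its adjusted p = 0.641. Between them, these 3 receptors spanned differences that all lay within the central 95% of genes, which ran from -0.49 to 0.38, as the plot of fold changes shows.

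**Figure D3:**
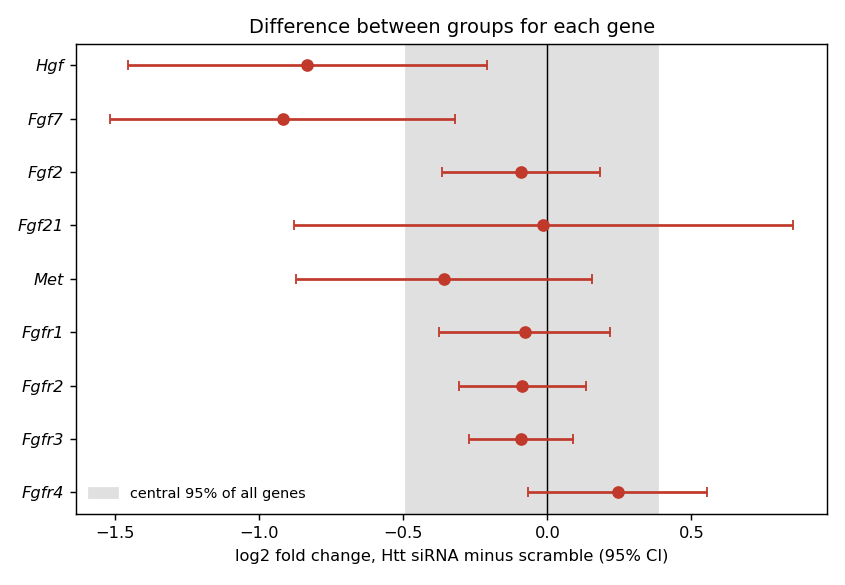
Log2 fold change, Htt siRNA minus scramble (x axis), with its 95% confidence interval from limma for the 9 genes (points and bars, 3 arrays per group); the grey band holds the central 95% of fold changes of all 22180 genes, from -0.49 to 0.38. Hgf and Fgf7 lie left of the band with intervals that do not reach 0, and the other 7 intervals include 0.

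The genes around the ligands and receptors were described by list, each beside the all-gene shares given above. Of 10 measured HGF activation and MET relative genes, 0 passed the threshold, 1 lay higher at an unadjusted p under 0.05 and 0 lower, with a median log2 fold change of 0.14. The gene concerned was Plat, the tissue plasminogen activator, with 7.58, 7.52 and 7.74 with Htt siRNA against 7.16, 6.95 and 7.41 with scramble (0.44 ± 0.13, adjusted p = 0.373 in limma). F12, the coagulation factor XII gene, and Mst1, which encodes the ligand of the MET relative RON, had values of 0.22 ± 0.10 and 0.13 ± 0.08. Of the 10, 8 averaged below the median gene.

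Of 19 further FGF ligand genes, 0 passed the threshold, 3 lay higher at an unadjusted p under 0.05 and 0 lower, and the median was 0.15. The 3 were Fgf9 (0.30 ± 0.10), Fgf12 (0.26 ± 0.09) and Fgf14 (0.26 ± 0.10), of which the last 2 encode intracellular FGF homologues that bind sodium channels. Their values lay between 1.85 and 2.87, and 15 of the 19 averaged below the median gene. Fgf5, chosen after its value was seen, was low in Htt siRNA replicates 1 and 3 and not in replicate 2, with 2.84, 3.94 and 2.91 with Htt siRNA and 3.78, 3.65 and 3.81 with scramble. Its difference was -0.52 ± 0.27 (adjusted p = 0.526 in limma). Without Htt siRNA replicate 2 the difference was -0.87 ± 0.10 (adjusted p = 0.0103 in limma), where 2.43% of all genes passed. That array is the only treated one in which Fgf5 was not low, so this setting gives no separate support.

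FGF receptor partners are the heparan sulfate proteoglycans, their synthesis and editing enzymes, the Klotho coreceptors and related proteins. Of 24 measured, 0 passed the threshold, 7 lay higher at an unadjusted p under 0.05 and 2 lower, with a median of 0.09 (0.055 to 0.13 with 1 array left out). Sulf2, a sulfatase that trims heparan sulfate outside the cell, stood at 5.70, 5.66 and 5.46 with Htt siRNA and 4.98, 5.03 and 5.36 with scramble (0.48 ± 0.13, adjusted p = 0.317 in limma). The proteoglycan gene Sdc2 stood at 9.35, 9.04 and 9.21 with Htt siRNA and 8.75, 8.23 and 8.91 with scramble (0.57 ± 0.18, adjusted p = 0.384). Fgfrl1, an FGF receptor relative that lacks the kinase domain, lay the other way, at 3.86, 4.33 and 3.66 with Htt siRNA and 4.34, 4.80 and 4.44 with scramble (-0.57 ± 0.19, adjusted p = 0.395 in limma). In all 3 genes the groups did not overlap, which was so for 7 members higher and 2 lower, against 10.1% and 5.91% of all genes.

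Of 24 measured genes of the receptor adaptors and the RAS-ERK, PI3K and phospholipase C branches, 0 passed the threshold, 2 lay higher and 3 lower at an unadjusted p under 0.05, and the median was -0.03. Lower values were found for the ERK pathway kinase Braf, at 6.09, 6.14 and 5.92 with Htt siRNA and 6.68, 6.44 and 6.47 with scramble (-0.48 ± 0.10, adjusted p = 0.267 in limma). Pik3cb, a PI3K catalytic subunit gene, had a difference of -0.65 ± 0.15 (adjusted p = 0.295 in limma). Another PI3K catalytic subunit gene, Pik3ca, lay the other way (0.25 ± 0.09, adjusted p = 0.416 in limma). Pik3ca was named after its value was seen. Stat3, a transcription factor that receptor kinases can activate, had a difference of 0.47 ± 0.12 (adjusted p = 0.327 in limma).

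The last list holds ERK feedback and target genes. Of 19 measured, 0 passed the threshold, 8 lay lower at an unadjusted p under 0.05 and 0 higher, with a median of -0.37, and 15 of the 19 had negative differences. Dusp5, a nuclear ERK phosphatase, stood at 5.32, 5.70 and 5.59 with Htt siRNA and 5.88, 6.43 and 6.22 with scramble (-0.64 ± 0.16, adjusted p = 0.311 in limma). Etv1, a transcription factor gene that FGF signals are known to raise, stood at 4.20, 4.91 and 4.37 with Htt siRNA and 4.96, 5.45 and 5.21 with scramble (-0.71 ± 0.20, adjusted p = 0.346). For the early response gene Ier3 the difference was -0.71 ± 0.17. Other FGF feedback and target genes are named here after their values were seen. The ERK phosphatase gene Dusp6 had -0.87 ± 0.40, and the transcription factor genes Etv4 and Etv5 had -0.71 ± 0.28 and 0.04 ± 0.15. The Sprouty genes had 0.07 ± 0.15 (Spry1), 0.06 ± 0.17 (Spry2) and -0.29 ± 0.20 (Spry4), and the related inhibitor genes -0.20 ± 0.14 (Spred1), -0.23 ± 0.14 (Spred2), -0.37 ± 0.14 (Spred3) and -0.05 ± 0.08 (Il17rd). Centred as above, the whole list averaged -0.43, 0.05 and -0.19 in Htt siRNA replicates 1, 2 and 3, against 0.05, 0.26 and 0.26 in the scramble arrays. The cell division list given above was likewise lowest in Htt siRNA replicate 1, then replicate 3, and highest in scramble replicate 2, and the part of cell division in these differences was not tested. Without Htt siRNA replicate 2, 5 members passed the threshold, all lower (Dusp4, Egr1, Etv1, Etv4 and Phlda1), where 2.43% of all genes passed. Each of the 5 was highest in that array among the treated ones, so this setting gives no separate support. With any other array left out, 0 members passed.

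**Figure D4:**
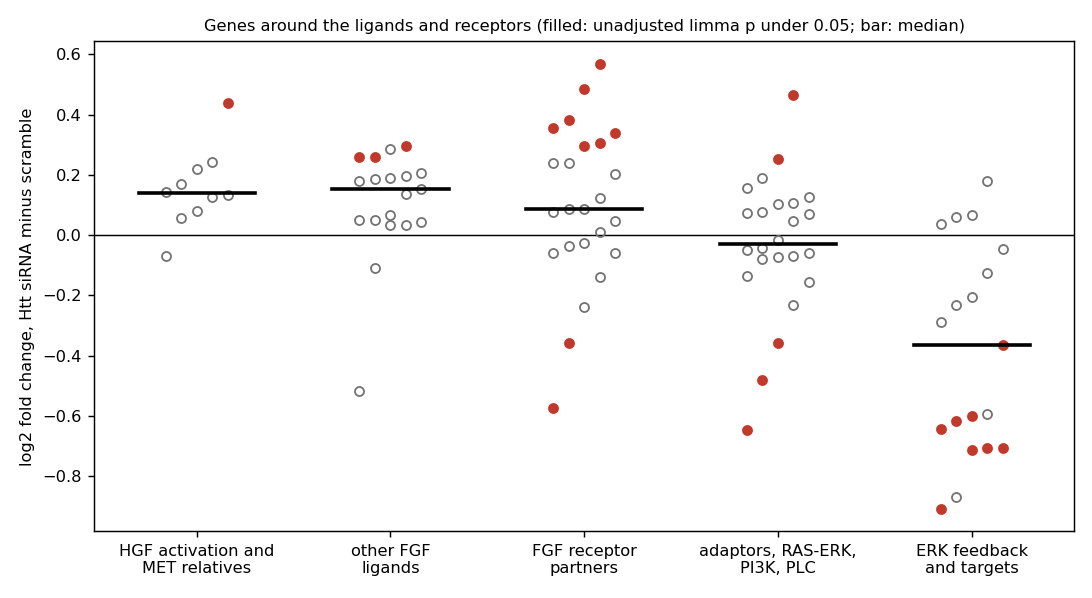
Log2 fold change, Htt siRNA minus scramble (y axis), of each measured gene of 5 lists around the ligands and receptors; filled points have an unadjusted limma p under 0.05, and black bars are list medians. The ERK feedback and target list has 8 filled points, all below 0, and the FGF receptor partner list has 7 above and 2 below.

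Genes with array patterns most like those of Hgf, Fgf7, Met and Fgf21 were taken from 1811 genes above the median gene mean with an SD of at least 0.3 over the 6 arrays. With 6 arrays and so many candidates, high correlations are easily met. Shared high and low arrays follow from choosing genes by likeness, so both are given as a description. Hgf was closest to Chek2, a DNA damage checkpoint kinase gene (Pearson r = 0.996 over 6 arrays), to Uba6, a ubiquitin-activating enzyme gene (0.992), and to Tnfrsf22, a decoy receptor gene (0.987). Chek2 stood at 5.27, 5.65 and 4.78 with Htt siRNA and 5.91, 5.99 and 5.84 with scramble, so it too was lowest in Htt siRNA replicate 3. Fgf7 was closest to the centrosome gene Cep152 (0.994), the zinc finger gene Zik1 (0.987) and the nuclear pore gene Nup133 (0.985). Met was closest to Sfmbt1 (0.994), Mtmr12 (0.989) and Abhd14b (0.988), all of them highest in Htt siRNA replicate 2 among the treated arrays. Fgf21 was closest to Nthl1, a DNA glycosylase gene (0.995), the small nucleolar RNA host gene Snhg1 (0.987) and Rcl1, a ribosomal RNA processing gene (0.984).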

How the data were processed

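The deposited table holds log2 values of 41345 probe sets on 6 arrays, as the authors made them; the submitters' processing notes name RMA and the affy package, and no genome build is given in the sources used here. Symbols came from the platform annotation: 23521 probe sets had 1 symbol, 1814 several and 16010 none, and 23328 of the first were matched by Entrez identifier to RefSeq (GRCm38.p6). The brightest probe set over the 6 arrays stood for each of 22180 genes, with no filter on dim genes. Limma 3.58.1 (R 4.3.3; lmFit and eBayes, group as the only term, two-sided) was run on all genes and adjusted by Benjamini-Hochberg; the same code was tested on simulated data. Pairs of arrays correlated at 0.981 to 0.991 over probe sets, and the number of arrays limits precision. Exact permutation tests used SciPy 1.17.1. Lists were described by counts and medians, with no set test. Named are the 9 genes, Htt, the 3 members of each list with the smallest p where none passed, and the 3 genes most like each varying member; others were chosen after their values were seen. The myogenic differentiation list (16 measured, 12 higher and 0 lower at an unadjusted p under 0.05, led by Mymk, Myog and Acta1) served as context. So did the cell division list (14 measured, 0 higher and 13 lower, led by Cdc6, Mcm6 and Mcm2). Among all genes 5.72% lay higher and 5.14% lower at that p. Markers of adipocytes, macrophages, epithelium, neurons and glia were also read: summed log2 levels were 19.6 to 20.2 with Htt siRNA and 19.9 to 20.4 with scramble for adipocytes, 19.4 to 20.2 with Htt siRNA and 19.7 to 20.5 with scramble for macrophages, 17.8 to 18.5 with Htt siRNA and 18.1 to 18.7 with scramble for epithelium, and 22.4 to 24.4 with Htt siRNA and 22.9 to 23.3 with scramble for neurons and glia. For endothelium the sums were 16.1 to 16.5 with Htt siRNA and 15.5 to 15.9 with scramble. For hepatocytes they were 16.1 to 16.7 with Htt siRNA and 15.7 to 16.1 with scramble. For C2C12 myoblasts they were 67.8 to 69.2 with Htt siRNA and 64.3 to 67.0 with scramble. Genes and lists were chosen with earlier results of these data known. There were 15 alternatives.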

Additional observations from a re-analysis of the deposited data

How the results depend on the processing

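Of the 9 genes, Met, Fgf2, Fgfr2, Fgfr3 and Fgfr4 kept their sign and stayed short of the threshold in all alternatives that could be run; Fgf2, Fgfr2, Fgfr3 and Fgfr4 dropped out when only genes above the median gene mean were kept. Leaving out each array in turn moved the log2 fold change of Hgf between -1.11 and -0.51, of Fgf21 between -0.31 and 0.34, of Fgfr1 between -0.19 and 0.0092 and of Htt between -1.16 and -1.06, and array weights gave 0.15 for Fgf21. The labels number replicates 1 to 3 in both groups. Deviations from group means of same-numbered arrays correlated at 0.35, 0.36 and 0.01, and those of differently numbered arrays at -0.43 to 0.22. Htt siRNA replicate 3 correlated best with scramble replicate 1 (0.22). Whether same-numbered arrays were handled together is not given in the labels, and these values cannot decide it. With the replicate block Fgf7 kept its -0.92 with a limma adjusted p = 0.0255, Hgf had 0.114 and Htt -1.10 (0.0128). In that fit 98 genes passed, 41 higher and 57 lower (0.442%), 7 of them myogenic and 1 of cell division. Htt passed with centred arrays (-1.13), repeated quantile normalization (-1.04), genes above the median gene mean (-1.10), array weights (-1.11) and the stress covariate (-1.11). The count of genes past the threshold was 0 to 540 when 1 array was left out (540 without Htt siRNA replicate 2, 117 higher and 423 lower), 3 with centred arrays, with repeated quantile normalization and above the median gene mean, 1 with array weights, 2 with a variance trend and 91 with the stress covariate (32 higher and 59 lower), among them 2 ERK feedback, 7 myogenic and 2 cell division genes. Members past the threshold with 1 array left out numbered 0 to 1 for other FGF ligands and for the adaptor list, 0 to 5 for ERK feedback, 0 to 9 for the myogenic and 0 to 14 for the cell division list. Each of these upper counts came without Htt siRNA replicate 2. The median of other FGF ligands was 0.061 to 0.18 with 1 array left out, 0.12 with centred arrays and with the stress covariate, 0.11 with repeated quantile normalization, 0.10 above the median gene mean and 0.18 with the mean of a gene's probe sets; that of the adaptor list was -0.033 to 0.039 with 1 array left out. The HGF activation list had 0.076 with repeated quantile normalization and 0.34 above the median gene mean, where FGF receptor partners had 0.24 and the myogenic list 1.35. That filter took out 8 of the 10 measured HGF activation genes and 15 of the 19 other FGF ligands. It also took out 7 of 24 receptor partners and 3 of 16 myogenic genes, so these medians rest on fewer genes. Of all genes at an unadjusted p under 0.05, 1269 were higher and 1140 lower, against 911 and 1465 with centred arrays. The cause of these shifts was not tested. Fgf2, Fgfr2, Fgfr3 and Fgfr4 averaged below the median gene and Fgf21 only a little above it, so their levels may be background.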
